A study of Mus musculus with 4 samples.

Results

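Ribosome biogenesis in the nucleolus begins when RNA polymerase I transcribes the ribosomal DNA into a long precursor. Small nucleolar ribonucleoproteins (snoRNPs) modify that precursor, the small-subunit processome folds and cuts it into the pre-40S particle, and a separate set of factors assembles the pre-60S particle. Dividing progenitors and leukemic cells depend on this pathway, and MYC is a known activator of many of its genes. A list of 60 such factors was examined on 4 arrays of mouse fetal liver progenitors. A factor was a member if the array table held its listed symbol, which was so for 47 of the 60, out of 18113 gene names in the table.

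The cells were c-Kit positive, Ter119 negative progenitors from C57BL6/J embryos at day 13.5, either wild type (WT) or lacking Btg1 (Btg1-/-), sorted with magnetic beads. After 24 hours of expansion they were infected with a control retrovirus (Ctrl) or one carrying the leukemia fusion ETV6-RUNX1, kept 48 hours more, and grown for 12 days. All cultures received stem cell factor (100 ng/ml), interleukin 7 (20 ng/ml) and FLT3 ligand (10 ng/ml). The labels give neither the number of embryos behind a culture nor the promoter that drives the fusion. Wild-type cells gave the groups WT+Ctrl and WT+ETV6-RUNX1, and cells without Btg1 gave Btg1-/-+Ctrl and then Btg1-/-+ETV6-RUNX1. Each group has 1 Illumina MouseRef-8 array. No difference has a replicate check and no p-value is given. Runs of 4 values are always log2 levels on these arrays in this order. Levels of different genes come from different probes and are not set against each other.

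The members, spelled as in the array table, fall into steps. RNA polymerase I and its regulator are represented by POLR1A, POLR1C, POLR1E and MYBBP1A. The snoRNP proteins are DKC1, NOLC1 and RRP9, and the abundant nucleolar chaperones are NCL, NPM1 and NPM3. UTP15, WDR75, NOL11 and HEATR1 belong to the UTP-A complex, and PWP2, TBL3 and WDR3 to the UTP-B complex, which together start the small-subunit processome. IMP3, IMP4, NOC4L, NOL6, RCL1, NOL10 and DDX52 are further processome factors. BYSL, RRP12, NOB1, PNO1 and TSR1 act late on the pre-40S particle. PES1, BOP1, WDR12, GNL3, EBNA1BP2, RRP1B, RRP15, NOC3L, WDR74, RRS1, GRWD1, PPAN, MRTO4, NIP7, DDX56 and URB2 act on the pre-60S particle. DDX21 and LYAR are nucleolar proteins that were given no step. Mouse symbols are used from here on.

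A log2 level of 6 was used as the floor under which a value is only an upper bound. Of the 47 members, 39 reached it on at least 1 array and 29 on all 4. The other 8 lay between 2.42 and 5.94 on every array and were not compared: Dkc1, Nolc1, Heatr1, Nol6, Bysl, Wdr12, Nip7 and Ddx56. The core pseudouridine synthase of the box H/ACA snoRNPs (Dkc1) and the third subunit of the PeBoW complex (Wdr12) therefore have no measured difference. The number of members at or above the floor was 38 in WT+Ctrl, 37 in WT+ETV6-RUNX1, 38 in Btg1-/-+Ctrl and 29 in Btg1-/-+ETV6-RUNX1. Over all genes that number ran from 5869 to 5900 between arrays. RMA largely fixes this likeness, since it makes the level distributions of the arrays alike.

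The Btg1-/-+ETV6-RUNX1 culture had the lowest levels of these factors. Of the 39 measured members, 36 had their lowest of the 4 values there, while 33.9% of 6321 measured genes did so. The exceptions were Npm3, Ddx52 and Urb2. In 31 of the 39 that array lay below the lowest other array by more than the whole range of the other 3, which was the case for 17.3% of all measured genes. Values in this paragraph were not raised to the floor. Pwp2 and Rrs1 reached it on 1 array only, so their order among the arrays rests on values under it. The range over the other 3 arrays had a median of 0.32 across members, and the drop from the lowest of them to the Btg1-/-+ETV6-RUNX1 array had a median of -0.81. RMA makes the level distributions of the arrays alike, so these are differences relative to the other genes. In cultures of mixed cells, fewer cells of a type and less RNA per cell cannot be told apart.

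**Figure D1:**
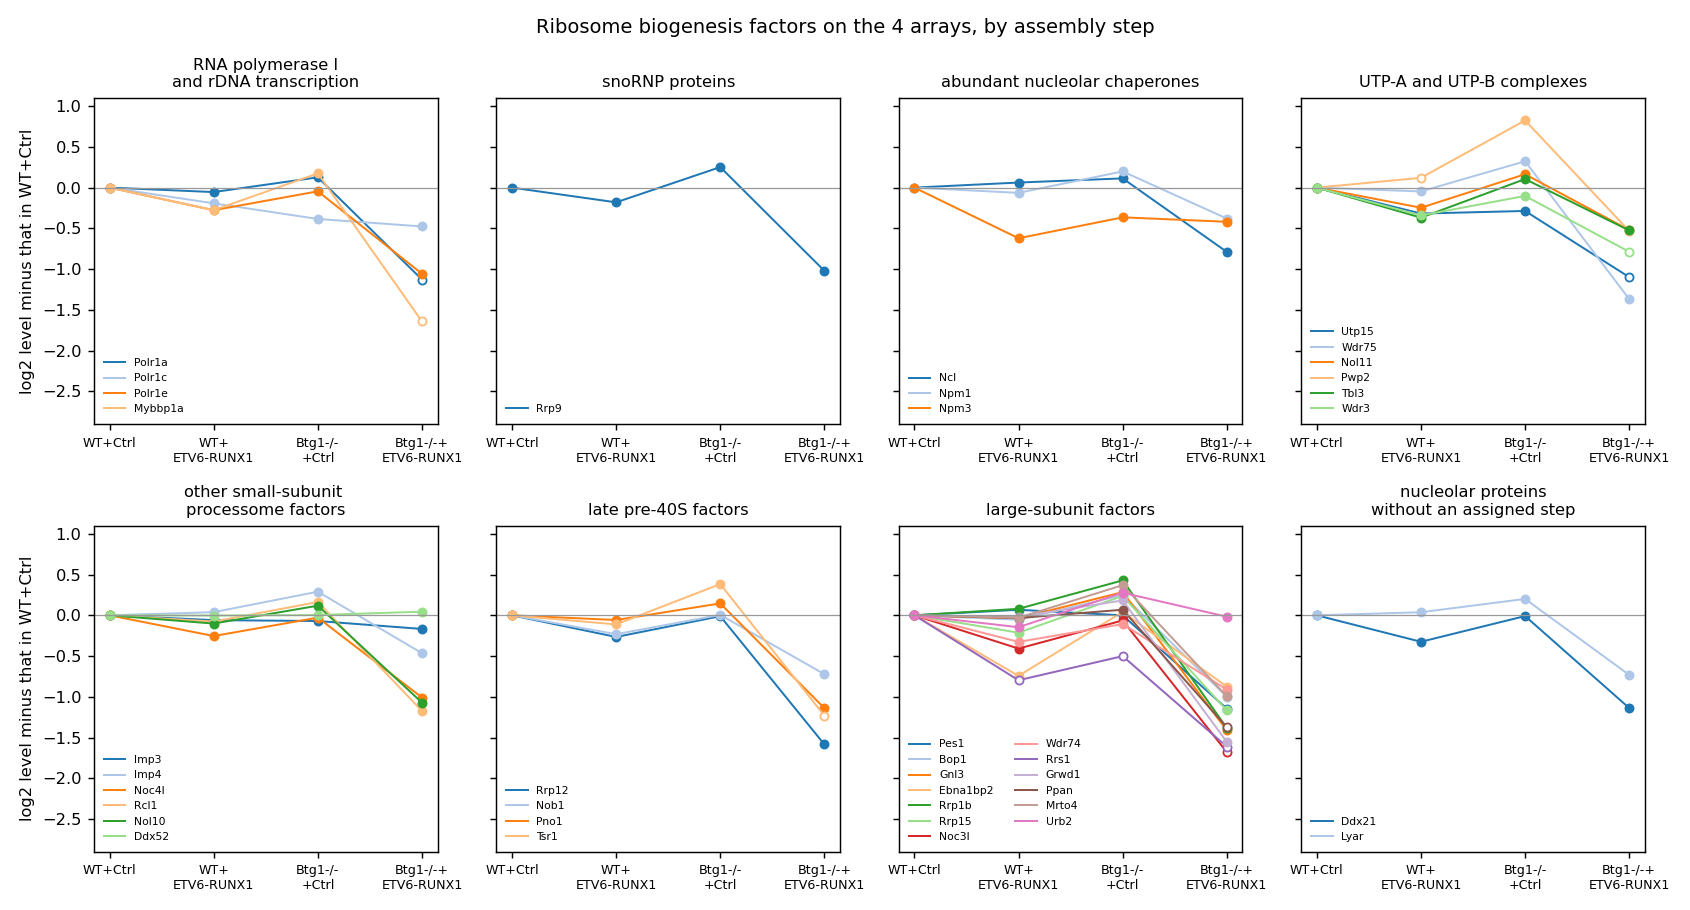
Log2 level of each measured factor minus its own level in WT+Ctrl (y axis) on the 4 arrays (x axis, 1 array per group), in 1 panel per assembly step, with a line per gene and open points for values below the floor of 6. In 36 of 39 genes the lowest point is the Btg1-/-+ETV6-RUNX1 array, and the other 3 arrays have a median range of 0.32.

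Fusion and control virus were first compared in Btg1-/- cells, which asks what ETV6-RUNX1 goes with when Btg1 is missing. Of 38 members compared, 37 were lower with the fusion, against 48.5% of the 6159 genes compared. At least 2-fold lower were 19 of 38, against 2.37% of all genes, and 0 were at least 2-fold higher, against 1.69%. The members were chosen with earlier results of these data known, so these shares describe the list and are no independent support. The members' median was -0.996 on the log2 scale, and that of all genes was 0.01. At 1.5-fold, 32 members and 8.17% of all genes were lower. A difference of at least 2-fold that was also at least 3 times the spread was found for 13 members and 1.2% of all genes. Spread here means the robust standard deviation of the log2 difference among the gene and its neighbours in level, 250 above and 250 below. It includes real differences and differences between the cultures compared, and it does not measure variation between replicate cultures. Of the 146 genes at least 2-fold lower, 19 were members, and members made up 38 of the 6159 genes compared.

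Entry into the comparison favors genes that are high on 1 side, so the members were also split by it. In 29 members both arrays reached the floor. Of these 28 were lower, against 2731 of the 5618 genes that did so, and 14 were at least 2-fold lower, against 2.06%. In the other 9, Btg1-/-+ETV6-RUNX1 lay below the floor and the value is a bound, so these had to be lower. Over all 47 members without a floor, 42 were lower and the median was -0.93. This array also varied more than the rest. Among 1535 bright genes (mean level 10 or more), differences had a robust standard deviation of 0.296 here, 0.135 between both wild-type arrays and 0.12 between both control arrays. The part of that wider spread in the result was not tested.

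**Figure D2:**
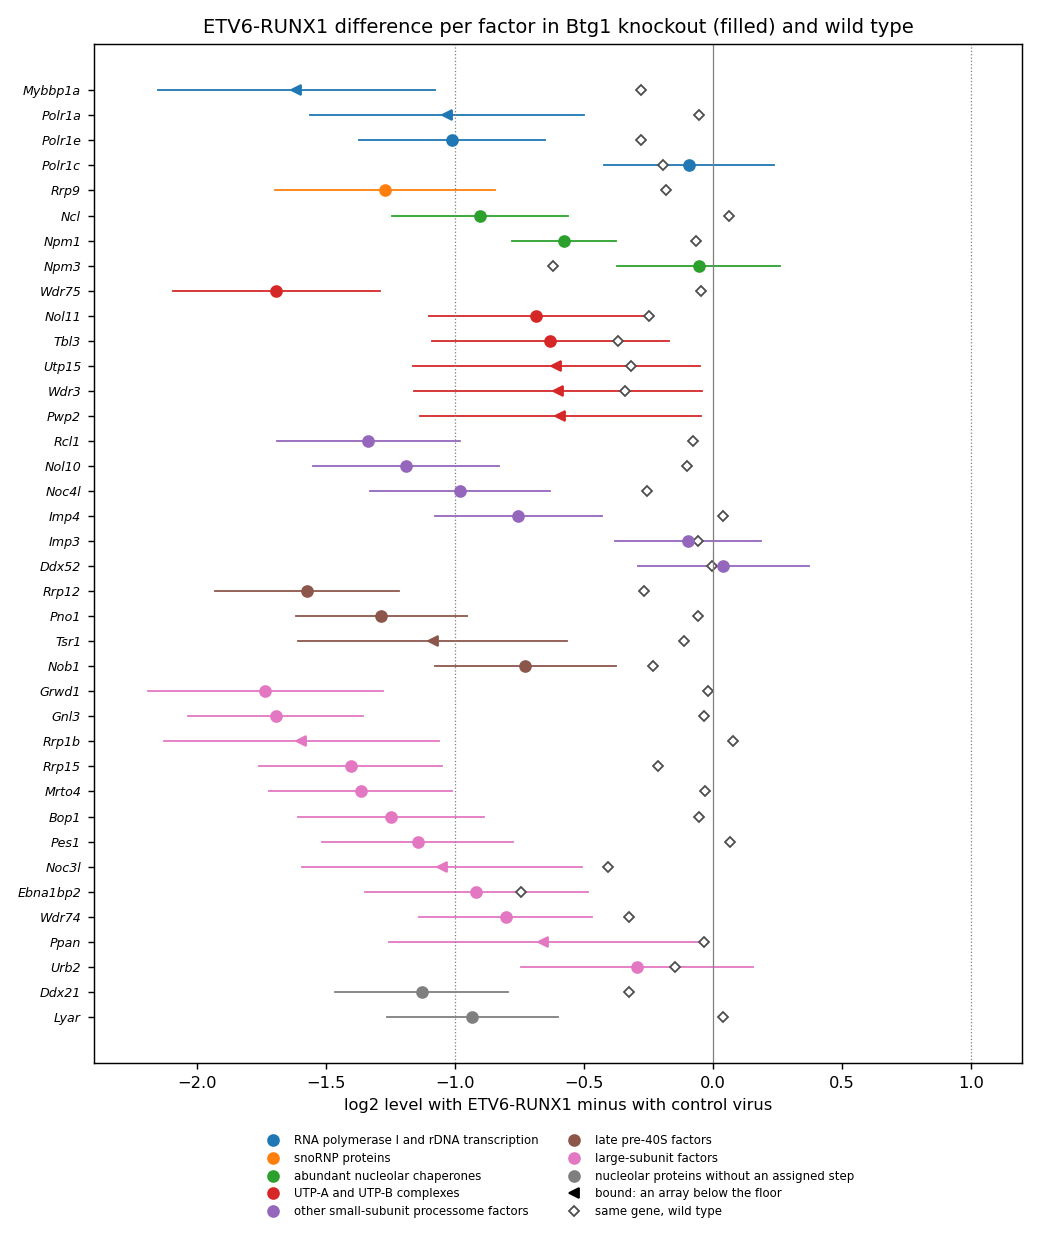
Log2 difference between ETV6-RUNX1 and control virus (x axis) for each factor (y axis), filled in Btg1-/- with a line of 1 level-matched spread on either side, and as open diamonds in wild type. Dotted lines mark 2-fold, and triangles are bounds because an array lay below the floor. In Btg1-/- 19 of 38 points reach 2-fold lower, and 0 of the 37 diamonds do.

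Promoter windows are shown because so many of these genes were lower on the same array. RefSeq windows from 250 bases before to 50 after the start were given for 41 members (build GRCm38.p6). The palindromic E-box CACGTG, the site MYC and MAX are known to bind, was searched. It reads the same on both strands. By gene, 7 of the 41 members (17.1%) had it in a window, as did 8.09% of all 27025 genes with a window, 13.1% of the 4041 of these compared here and 18 of 76 genes of the second list described below (23.7%). By window, it occurred in 7 of the members' 44 (15.9%) and in 7.15% of all 32851. The members' share lay between those of the compared genes and of the second list. The part of the motif in the result was not tested. In 5 of the 7 the first match lay after the start, as did 13.2% of first matches over all windows. The 4 windows below with CACGTG, in capitals, belong to the 4 members with 1 window and a match whose differences for the fusion in Btg1-/- were lowest with values raised to the floor. Tsr1 came next in that order with a bound, and its place among them rests on the floor. The 2 windows after them have none.
Grwd1, chr7:45830740-45831039, minus strand: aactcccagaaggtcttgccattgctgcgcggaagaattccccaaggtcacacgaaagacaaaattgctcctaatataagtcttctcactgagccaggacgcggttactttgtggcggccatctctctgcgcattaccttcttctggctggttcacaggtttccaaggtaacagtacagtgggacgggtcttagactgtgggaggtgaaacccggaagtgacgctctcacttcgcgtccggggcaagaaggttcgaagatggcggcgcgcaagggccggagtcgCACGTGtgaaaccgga
Mybbp1a, chr11:72441077-72441376, plus strand: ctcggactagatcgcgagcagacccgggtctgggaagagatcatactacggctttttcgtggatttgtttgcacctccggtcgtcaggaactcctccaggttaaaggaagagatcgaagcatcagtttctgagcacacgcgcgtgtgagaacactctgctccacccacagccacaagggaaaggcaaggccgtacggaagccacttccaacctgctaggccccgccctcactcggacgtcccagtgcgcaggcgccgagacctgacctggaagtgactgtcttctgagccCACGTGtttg
Pno1, chr11:17211540-17211839, minus strand: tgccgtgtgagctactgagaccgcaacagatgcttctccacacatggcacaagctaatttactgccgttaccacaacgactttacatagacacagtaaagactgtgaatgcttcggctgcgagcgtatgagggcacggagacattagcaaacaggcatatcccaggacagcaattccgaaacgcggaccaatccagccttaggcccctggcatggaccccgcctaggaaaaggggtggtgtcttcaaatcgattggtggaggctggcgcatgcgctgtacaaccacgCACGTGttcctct
Pes1, chr11:3963725-3964024, plus strand: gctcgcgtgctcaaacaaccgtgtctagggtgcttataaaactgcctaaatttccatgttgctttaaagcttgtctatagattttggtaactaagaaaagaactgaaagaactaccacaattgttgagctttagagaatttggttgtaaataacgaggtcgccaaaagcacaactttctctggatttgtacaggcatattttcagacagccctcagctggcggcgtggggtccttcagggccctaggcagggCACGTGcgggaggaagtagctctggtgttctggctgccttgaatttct
Gnl3, chr14:31019082-31019381, minus strand: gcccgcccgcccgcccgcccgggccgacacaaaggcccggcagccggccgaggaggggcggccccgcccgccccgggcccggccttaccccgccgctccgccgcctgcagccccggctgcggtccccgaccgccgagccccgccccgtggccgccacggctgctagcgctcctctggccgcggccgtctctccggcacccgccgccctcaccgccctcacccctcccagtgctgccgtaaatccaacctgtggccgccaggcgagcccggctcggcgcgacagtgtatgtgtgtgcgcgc
Wdr75, chr1:45794916-45795215, plus strand: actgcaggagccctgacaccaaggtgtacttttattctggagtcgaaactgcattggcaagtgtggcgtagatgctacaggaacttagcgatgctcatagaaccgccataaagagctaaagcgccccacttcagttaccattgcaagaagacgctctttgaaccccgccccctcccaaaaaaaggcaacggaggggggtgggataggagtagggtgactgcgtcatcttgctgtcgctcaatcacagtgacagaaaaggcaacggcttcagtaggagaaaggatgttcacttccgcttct
Counted from the start as base 1, the match spans bases 35 to 40 in Grwd1, 41 to 46 in Mybbp1a, 38 to 43 in Pno1 and 3 to 8 in Pes1. The other 3 members with a match were Tsr1, Nol11 and Imp4. The fusion's difference in Btg1-/- had a median of -1.14 over the 7 members with CACGTG and -0.93 over 27 without it. Over all genes these medians were -0.01 and 0.02. Gnl3 and Wdr75, without the motif in this window, both had a difference of -1.69, and Grwd1, with it, one of -1.73. Myc itself was below the floor on all 4 arrays, at 4.03, 2.76, 4.42 and 2.72, so its difference could not be read.

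Of 4 polymerase I members compared, 3 were at least 2-fold lower (2.37% of all genes), 2 of them as bounds. Polr1a, the largest subunit, had levels of 6.91, 6.85, 7.03 and 5.78. The first 3 arrays lay close together and the array with both lesions lay below the floor, which makes the fusion's difference in Btg1-/- at least 2.04-fold. Polr1e, a polymerase I-associated subunit, had levels of 9.13, 8.85, 9.08 and 8.07 and a difference of -1.01 (spread 0.36). Mybbp1a, a nucleolar regulator of polymerase I and precursor processing, stood at 7.44, 7.16, 7.61 and 5.80 and was at least 3.06-fold lower. Polr1c, which polymerases I and III share, stood at 10.49, 10.30, 10.11 and 10.01. It was highest in WT+Ctrl, and its difference of -0.09 was smaller than its spread of 0.33. Of 7 polymerase I factors compared in the second list below, 1 was at least 2-fold lower (Cd3eap). Znrd1 (-0.02, spread 0.32) and Twistnb (-0.33, spread 0.36), both from that list, were within their spread.

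Of the snoRNP proteins only Rrp9 was measured among members. Rrp9, a protein of the U3 snoRNP that guides processome assembly, had levels of 8.31, 8.13, 8.56 and 7.29, with a difference of -1.27 (spread 0.43). The other 13 listed symbols were absent from the table, and 4 of those genes were found under older names, which leaves them outside the member count. Nop56, a core protein of box C/D snoRNPs, stood at 10.27, 10.25, 10.40 and 9.29. Gar1, a core protein of box H/ACA snoRNPs, stood at 12.15, 11.92, 12.20 and 11.31. Nop14, a processome factor, stood at 8.69, 8.74, 8.92 and 7.77, and Rpf2, which loads the 5S particle onto the pre-60S, at 7.33, 7.53, 7.68 and 5.92. Each had its lowest value with both lesions. Their differences in Btg1-/- were -1.11, -0.89 and -1.15, and at least 3.2-fold lower for Rpf2.

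The abundant chaperones had smaller differences, and that of Npm3 was within its spread. Nucleolin (Ncl), which binds rDNA and precursor RNA, had levels of 10.55, 10.62, 10.67 and 9.76, a difference of -0.90 (spread 0.34). Nucleophosmin (Npm1) stood at 14.44, 14.37, 14.64 and 14.06, a difference of -0.58 (spread 0.20). Its level is near the top of the array's scale, where differences may be compressed, and Npm1 has pseudogene copies that a probe may also read. Its relative Npm3 stood at 11.38, 10.76, 11.01 and 10.96. Here WT+Ctrl was high and the other 3 close together, so the difference in Btg1-/- was -0.05 (spread 0.32).

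In the UTP-A and UTP-B complexes all 6 measured members were lower (48.5% of all genes), with 1 past 2-fold (2.37%) and a median of -0.62. Utp15, Wdr3 and Pwp2 lay below the floor with both lesions, so they could only be lower, and the median includes these bounds. Wdr75 of UTP-A stood at 8.63, 8.58, 8.95 and 7.26, a difference of -1.69 (spread 0.40). Pwp2 of UTP-B stood at 5.77, 5.89, 6.59 and 5.23. It reached the floor only in Btg1-/-+Ctrl, and its difference is a bound of at least 1.51-fold. The other 4 (Utp15, Nol11, Tbl3 and Wdr3) lay between -0.60 and -0.68, with Utp15 and Wdr3 as bounds, and 3 of those 4 differences were within 1.5 times their spread.

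Further processome factors ranged widely. Rcl1, related to RNA cyclases, stood at 9.56, 9.49, 9.73 and 8.39, a difference of -1.34 (spread 0.35). Nol10, the counterpart of yeast Enp2, stood at 9.23, 9.13, 9.35 and 8.16, a difference of -1.19 (spread 0.36). Noc4l, a partner of Nop14, stood at 9.42, 9.17, 9.39 and 8.41 and lay just inside 2-fold at -0.98 (spread 0.35). In all 3 genes the array with both lesions stood apart from the other arrays. The RNA helicase gene Ddx52 had like levels on all arrays, at 10.12, 10.12, 10.12 and 10.17. Imp3 and Imp4, both partners of MPP10, differed from each other, with Imp3 at -0.10 (spread 0.28) and Imp4 at -0.75 (spread 0.32).

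Late pre-40S factors had a median of -1.19, and 3 of 4 were at least 2-fold lower (2.37% of all genes). Rrp12, which takes part in nuclear export of the particle, stood at 9.60, 9.34, 9.59 and 8.02, a difference of -1.57 (spread 0.36). Pno1, which binds next to the site that Nob1 cuts, stood at 10.73, 10.67, 10.88 and 9.59, a difference of -1.29 (spread 0.33). Tsr1, a pre-40S factor related to GTPases, stood at 6.70, 6.59, 7.09 and 5.47 and was at least 2.12-fold lower. The endonuclease that trims the end of 18S rRNA, Nob1, stood at 9.34, 9.11, 9.34 and 8.62, a smaller difference of -0.73 (spread 0.35).

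Large-subunit factors were lower in 12 of 12 compared (48.5% of all genes), 8 of them by at least 2-fold (2.37%). The median was -1.20. Rrp1b, Noc3l and Ppan lay below the floor with both lesions and could only be lower. Grwd1, a chaperone of the ribosomal protein RPL3, stood at 7.64, 7.63, 7.83 and 6.09, a difference of -1.73 (spread 0.46). Gnl3 (nucleostemin, a nucleolar GTPase of stem and dividing cells) stood at 10.95, 10.91, 11.23 and 9.54, a difference of -1.69 (spread 0.34). In both genes the 3 other arrays lay close together and the array with both lesions was more than 3-fold below Btg1-/-+Ctrl. Rrp15 stood at 9.67, 9.46, 9.91 and 8.50 and differed by -1.40 (spread 0.36). Mrto4, the counterpart of yeast Mrt4 that holds the place of the ribosomal stalk, stood at 9.37, 9.34, 9.74 and 8.38 and differed by -1.36 (spread 0.35). Rrp1b stood at 7.17, 7.25, 7.60 and 5.78 and was at least 3.02-fold lower. Noc3l stood at 7.11, 6.71, 7.05 and 5.43, at least 2.07-fold lower.

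The measured subunits of the PeBoW complex, which processes the precursor of 28S rRNA, differed by like amounts. Pes1 stood at 8.86, 8.92, 8.86 and 7.71, and Bop1 at 9.47, 9.41, 9.72 and 8.47. Their differences were -1.14 (spread 0.37) and -1.25 (spread 0.36). Urb2 stood at 7.52, 7.37, 7.79 and 7.50, the least different large-subunit factor at -0.29 (spread 0.45). Ebna1bp2 at -0.92 and Wdr74 at -0.80 lay between Urb2 and Pes1. Ppan stood at 6.59, 6.56, 6.66 and 5.22 and was at least 1.58-fold lower, a bound that gives it no place in this order. Rrs1, the partner of Rpf2, reached the floor only in WT+Ctrl, with levels of 6.13, 5.33, 5.63 and 4.52. It therefore had to be lower in each comparison with that array. Among the factors without a step, the RNA helicase gene Ddx21 stood at 11.00, 10.68, 11.00 and 9.87, a difference of -1.13 (spread 0.34). Lyar stood at 9.95, 9.99, 10.15 and 9.22, a difference of -0.93 (spread 0.33).

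In wild-type cells the fusion went with far smaller differences. Of 38 members compared, 33 were lower, against 54.3% of 6123 genes, but 0 were at least 2-fold lower (0.359% of all genes) and 0 at least 2-fold higher (1.88%). The median was -0.12 for members and -0.02 for all genes. At 1.5-fold 2 members were lower, against 2.99% of all genes, close to the background. These were Ebna1bp2 (-0.74), with levels of 8.10, 7.36, 8.15 and 7.23, and Npm3 (-0.62). Ebna1bp2 was low with the fusion in both genotypes.

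The difference between both fusion effects could be formed for the 29 members that reached the floor on each of the 4 arrays. It was below 0 in 26, against 49.7% of 5442 genes, and at least 2-fold more negative in Btg1-/- in 12, against 2.41%. Its median was -0.80 for members and 0.00 for all genes. Grwd1 had the most negative value at -1.72, followed by Gnl3 at -1.66 and Wdr75 at -1.64. Npm3 was the most positive at 0.57, from its high WT+Ctrl value. Both fusion effects share no array. Across the 37 members with both, they had Pearson r = -0.24 and Spearman rho = -0.26, a description of points that share 4 arrays. Over all 5961 genes with both effects the same values were 0.345 and 0.235, of the opposite sign.

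Loss of Btg1 without the fusion went with no large difference. Of 39 members 13 were lower (50.2% of 6097 genes), and 0 were at least 2-fold lower (0.312%) or higher (0.361%). The median was 0.12 for members and 0.00 for all genes. At 1.5-fold 0 members were lower (1.84% of all genes), and Pwp2 was the 1 member that was higher (2.25%). Pwp2 reached the floor only in Btg1-/-+Ctrl, so its value is a bound and could only be higher. Btg1 itself, the check of the genotype, stood at 11.87, 11.97, 9.02 and 9.97. It was 7.21-fold lower in Btg1-/- with the control virus and 4.01-fold lower with the fusion. Both Btg1-/- arrays stayed above the floor, and Btg1 was 1.93-fold higher with the fusion than without it in Btg1-/- (0.95, spread 0.34). Whether the probe lies in the deleted part of the gene is not known here.

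With the fusion present in both cultures, loss of Btg1 went with lower levels. Of 37 members 34 were lower (49.4% of 6106 genes), 9 of them by at least 2-fold (0.917%) and 23 by at least 1.5-fold (5.06%), with 0 at least 2-fold higher (0.671%). Polr1a, Mybbp1a, Utp15, Wdr3, Tsr1, Rrp1b, Noc3l and Ppan lay below the floor with both lesions, so these had to be lower. The median was -0.77 for members and 0.00 for all genes. The 9 were Grwd1, Gnl3, Wdr75, Rrp12, Rrp1b, Pes1, Mybbp1a, Rcl1 and Pno1, from -1.53 in Grwd1 to -1.08 in Pno1, with Rrp1b and Mybbp1a as bounds. Both lesions against WT+Ctrl gave 37 of 38 members lower (50.9% of 6173 genes), 16 by at least 2-fold (1.78%), 28 by at least 1.5-fold (7.66%) and 0 higher by 2-fold (2.61%). The genes named above as below the floor with both lesions, and Rrs1, had to be lower in this comparison too. Of the 16, 3 were bounds. Here the median was -0.91, and Noc4l passed 2-fold at -1.01. These comparisons and that of the fusion in Btg1-/- share the Btg1-/-+ETV6-RUNX1 array and are not independent of each other.

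**Figure D3:**
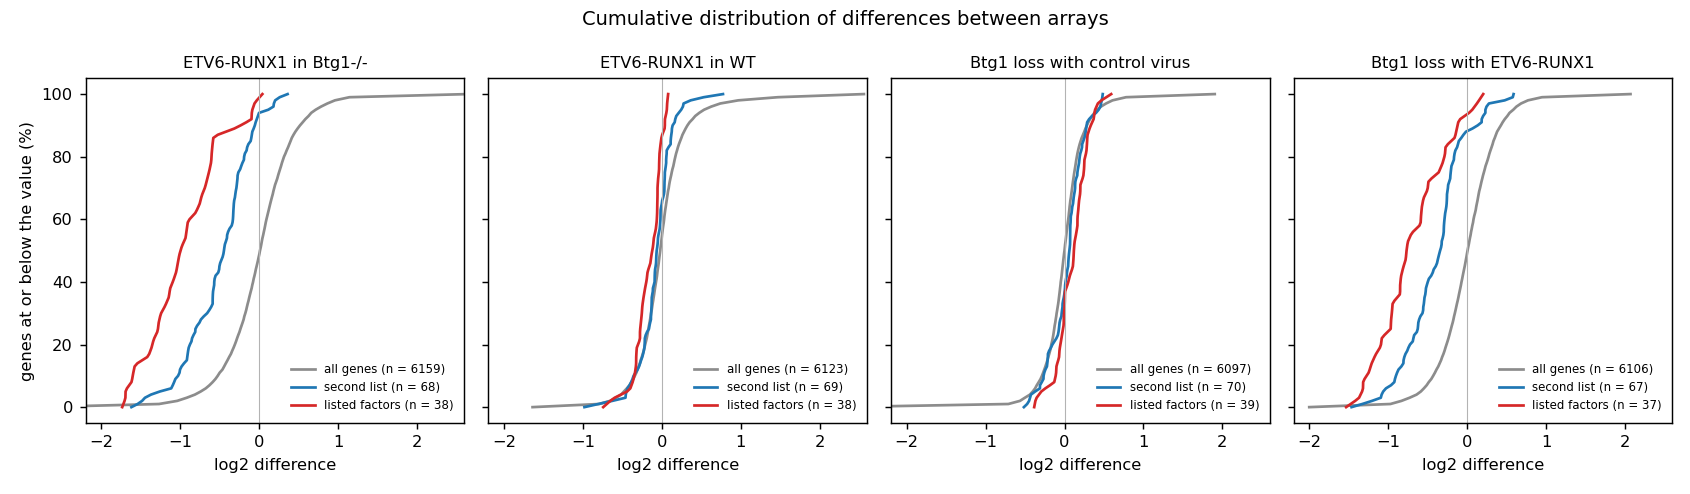
Percent of genes (y axis) at or below each log2 difference (x axis) in 4 comparisons of 2 arrays, for the listed factors, a second list of ribosome biogenesis factors and all genes. The curve of the listed factors lies to the left of all genes in both comparisons that use the Btg1-/-+ETV6-RUNX1 array, with medians of -0.996 and -0.77, and close to it in the other 2, with medians of -0.12 and 0.12.

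A second list of 102 ribosome biogenesis genes that are not members gave 92 in the table. In the Btg1-/- comparison of the fusion 68 were compared, 64 of them lower (48.5% of all genes), 9 by at least 2-fold (2.37%) and 0 by 2-fold higher (1.69%), with a median of -0.45. That median lies between those of the members and of all genes. Ubtf, Utp25, Nle1, Pelp1, Rrp8 and Dis3 had to be lower, since Btg1-/-+ETV6-RUNX1 lay below the floor in them. The 6 lowest were Cd3eap, a polymerase I subunit (-1.62, spread 0.42), Nop2, an rRNA methyltransferase (2.83-fold lower), Mdn1, a giant ATPase of the pre-60S particle (-1.45), Aatf (-1.33), Ftsj3 (-1.11) and Utp4 of UTP-A (-1.09). The 3 highest were Nop9 (0.36), the helicase gene Ddx54 (0.21) and the ATPase gene Nvl (0.19), each within its spread. By step the medians of this list were -0.33 for polymerase I, -0.59 for snoRNP proteins, -0.37 for small-subunit factors, -0.56 for large-subunit factors and -0.30 for the RNA exosome, which trims the precursor. Together both lists made up 28 of the 146 genes at least 2-fold lower (19.2%). Members were 38 and the second list 68 of the 6159 genes compared. Relatives of members, picked after their values were seen, did not all share the difference: Gnl2 stood at -0.56 beside Gnl3, and Rrp1 at 0.18 beside Rrp1b.

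Genes that start back to back with a member gave a local comparison. In the RefSeq windows 20 members had a start of another gene on the opposite strand within 1000 bases, and in 6 pairs both genes were compared. The 6 members had a median of -0.89 and their neighbours of -0.38, and the member was the lower gene in 5 of 6. The neighbour of Pno1, Wdr92, lay below the floor with both lesions, so its difference of -0.20 is a bound. With values raised to the floor Pno1 had to be the lower gene of that pair, and the neighbours' median includes the bound. Gnl3 and the chromatin gene Pbrm1 start 7 bases apart. Pbrm1 stood at 10.14, 10.15, 9.99 and 10.08 and differed by 0.09 (spread 0.32), while Gnl3 differed by -1.69. Imp4 and Ccdc115 were alike, at -0.75 and -0.74, so this pair counts among the 5 by a small margin only. Polr1c (-0.09, spread 0.33) and its neighbour Yipf3 (0.23, spread 0.34) were each within their spread. The value of Polr1a is a bound. Urb2 was the exception, with its neighbour Taf5l lower at -1.05 (spread 0.41).

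Markers of dividing cells showed no such difference in level. Of 12 listed, 10 were compared, and their differences for the fusion in Btg1-/- ran from -0.31 to 0.27 with a median of -0.04, 0 of them past 2-fold. Their mean level was 10.17, 10.14, 10.17 and 10.15. B-cell progenitor markers (6 compared of 9 listed) had mean levels of 10.90, 10.91, 10.67 and 11.25, and Vpreb1 was above 10 on every array. Pax5, of the same list, lay below the floor on all 4 arrays, at 4.96, 3.19, 4.11 and 5.20. For the fusion in Btg1-/- all 6 lay above 0, with a median of 0.39, and Rag1 was past 2-fold at 1.47. Mast cell and basophil markers (5 of 5) had mean levels of 10.02, 11.49, 10.87 and 11.47. These means were higher in both fusion cultures than in either control culture. All 5 markers were also higher in Btg1-/-+Ctrl than in WT+Ctrl, with a median of 0.98, and 2 of them were at least 2-fold higher. The stem cell marker Flt3 and all 4 T-cell markers lay below the floor on every array. So did the megakaryocyte markers Pf4 and Gp9 and the myeloid markers Mpo and Csf1r. Of 4 erythroid markers Hbb-b1 alone reached it. For the fusion in Btg1-/-, both measured megakaryocyte markers (Itga2b 1.56, Cd9 0.78), both measured myeloid markers (Ctsg 1.11, Lyz2 0.67) and both measured stem and early progenitor markers (Cd34 0.57, Gata2 0.86) lay above 0. The part of the cell mixture in the result was not tested.

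**Figure D4:**
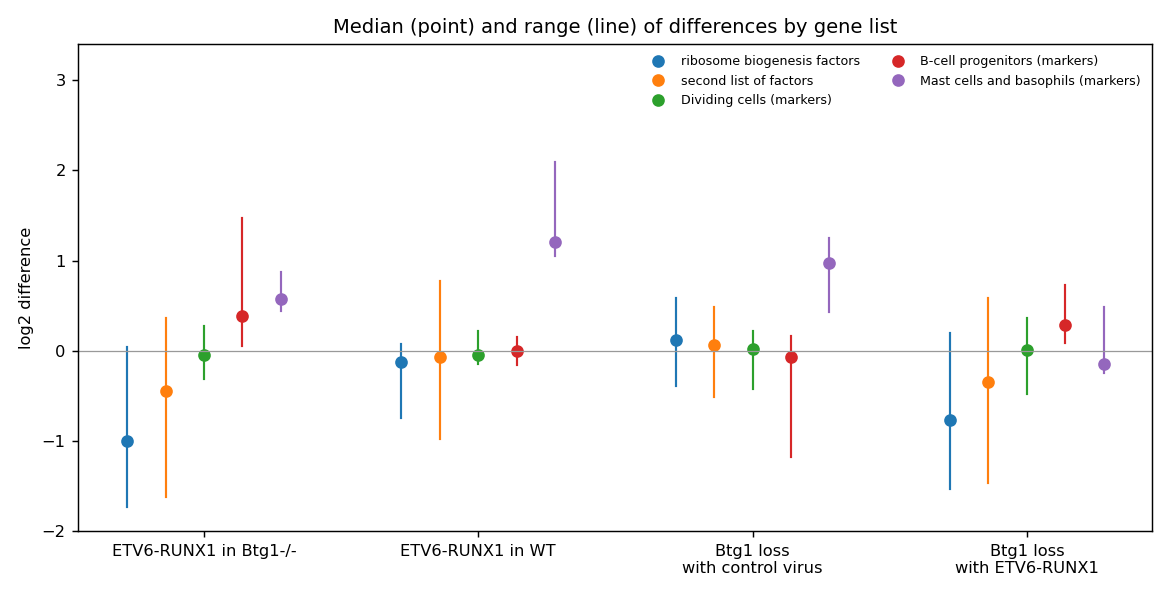
Median (point) and lowest to highest value (line) of the log2 difference (y axis) in 4 comparisons of 2 arrays (x axis) for the listed factors, the second list and 3 lists of cell markers. For ETV6-RUNX1 in Btg1-/- the factors have a median of -0.996 and the markers of dividing cells one of -0.04.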

How the data were processed

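The values are log2 levels that the authors made by RMA in ArrayStar from Illumina MouseRef-8 arrays, per the file headers, with 1 value per gene name and 1 array per group. The sources used here do not say how several probes for one gene name were merged. For 5 pairs of arrays the authors deposited a fold ratio, which equaled 2 to the power of the log2 difference within 2e-05 on the log2 scale, and their workbook repeats the same log2 levels. The deposited non-normalized signals and their detection p-values sit in 8 columns whose names match no label, and they were not used.

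Differences are one array minus another, with values below 6 raised to 6 and genes compared if at least 1 array of the pair reached 6. The spread is 1.4826 times the median absolute deviation over 250 neighbours in level on either side, computed on the whole table. With 1 array per group no test was possible, and signal over background was not assessed. The number of arrays limits the precision. Members and lists were chosen with earlier results of these data known. Full values were to be given for members past 2-fold in any comparison and for the least different member of each step. Of the second list, the 6 lowest and 3 highest were named. Older names were matched through RefSeq synonyms of 1 gene that are no other gene's symbol. Promoter windows are those of RefSeq, build GRCm38.p6. Alternatives were floors of 5 and 7, no floor, 2 scalings, genes on all 4 arrays, 1.5-fold, a demand of 3 spreads and, chosen after seeing the data, an entry rule on the mean over 4 arrays (6 or more). The calculations used Python 3.11.15, numpy 2.4.6, pandas 2.3.3 and matplotlib 3.10.9 and were tested on simulated data.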

Additional observations from a re-analysis of the deposited data

Results flagged for a closer look

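Loss of Btg1 went with opposite directions without and with ETV6-RUNX1, which drew attention to 3 values, and the difference between them was not tested. The members' median was 0.12 with the control virus and -0.77 with the fusion. Gnl3 differed by 0.28 and -1.38, and Mrto4 by 0.37 and -0.97, each by more than 2 times its spread. Each direction rests on 1 pair of arrays.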

How the results depend on the processing

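Of 130 recomputed values, 124 moved by at most 1.5 times for a count or by less than the members' median spread for a median, and 0 changed direction. The other 6 were counts. At 1.5-fold in place of 2-fold, lower members numbered 32 for the fusion in Btg1-/-, 2 for the fusion in wild type, 23 for Btg1 loss with the fusion and 28 for both lesions, and 1 member was higher for Btg1 loss with the control virus. Without a floor, 1 member (Ddx56, low on all arrays) was at least 2-fold higher with both lesions than in WT+Ctrl. These settings count more genes by construction. No paired analysis was possible because each group has 1 array. A median over genes near the floor understates a fold, since values are raised to the floor.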
